A study of Mus musculus with 8 samples.

Results

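The 10 genes described here encode subunits of SF3A (Sf3a1, Sf3a2, Sf3a3), subunits of SF3B (Sf3b1 to Sf3b5) and the U2AF heterodimer (U2af1, U2af2). They were chosen by name out of 21444 genes with counts, and all 10 were counted in every library and passed the filter on low counts. RNA was measured at embryonic day 11.5 in mouse primordial germ cells, from which eggs and sperm later form. The Prmt5 KO group holds 4 libraries from Blimp1Cre;Prmt5flox/flox embryos, and the Control group holds 4 from Blimp1Cre;Prmt5flox/+ embryos. All 8 came from a mixed C57BL/6 and 129 background, carried the dPE_Oct4 GFP reporter by which the cells were sorted, and started from 50 pg of total RNA. Both genotypes therefore carry Cre, expressed from Blimp1, and the Control genotype has 1 floxed and 1 intact copy of Prmt5. The floxed copy is a target of Cre in Control too, and the labels do not say how far it was deleted there. The labels do not say that each library is its own embryo, so a p-value here reflects only how far the libraries spread, some of which may be technical. RNA-seq was run on these libraries by a published single-cell protocol on SOLiD sequencers.

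Splicing removes introns in a fixed order of recognition steps. U2AF marks the end of an intron: its large subunit binds the pyrimidine-rich tract and its small subunit the AG that closes the intron. The U2 particle then pairs with the branch site a little upstream, held there by SF3A and SF3B, and the branch-site adenosine starts the reaction. PRMT5 makes symmetric dimethylarginine on several splicing proteins, among them Sm proteins of the spliceosomal particles.

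The libraries differed in depth. Gene counts summed to between 4318972 and 6549504 in Prmt5 KO and between 1811428 and 5844441 in Control, with Control 2 and 3 the shallowest. Prmt5 itself was at 39.9, 40.5, 35.3 and 26.4 CPM (counts per 1000000 of the TMM-scaled library size) in Prmt5 KO 1 to 4 and at 89.4, 171, 172 and 118 CPM in Control 1 to 4. Its log2 fold change was -1.95 with a standard error of 0.27 (edgeR quasi-likelihood test, adjusted p = 0.0389), and the groups did not overlap. Leaving out each library in turn kept it between -2.11 and -1.82, with an adjusted p from 0.0198 to 0.234 that stayed under 0.05 only without Control 1. Of 16 germ cell markers, all had counts, and their summed level ran from 3955 to 4573 CPM in Prmt5 KO and from 3789 to 4424 CPM in Control. Kit, the receptor of stem cell factor, led them at 1060 ± 69.2 CPM in Prmt5 KO and 1005 ± 102 CPM in Control (SD, n = 4 each). Prmt5 KO 1 and Prmt5 KO 4 stood apart from the other 6 in multidimensional scaling, Prmt5 KO 4 at -2.69 on dimension 1 and Prmt5 KO 1 at -2.26 on dimension 2. Prmt5 KO 4 also had 15486 genes detected, against 16474 to 17425 in the other Prmt5 KO libraries and 14400 to 16787 in Control. The 16 markers of somatic gonad and mesonephros summed to 964 CPM in Prmt5 KO 1, against 263 to 334 CPM in the other Prmt5 KO libraries and 218 to 353 CPM in Control. Gata4, a gonadal somatic factor, was at 29.7 CPM in Prmt5 KO 1 and at 0.581, 0.893 and 1.5 CPM in the other Prmt5 KO libraries, against 0.893 to 8.27 CPM in Control, and Pax2 and Upk3b of that list were at 0 in every Prmt5 KO library.

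None of the 10 genes passed the test between the groups. Benjamini-Hochberg adjusted p-values over the 10990 genes tested ran from 0.576 to 0.964 for them in edgeR, and 0.0273% of all genes tested passed 0.05. DESeq2, which called 0.937% of all genes, and limma voom, which called 0.0091%, also called 0 of the 10. At an unadjusted p under 0.05 there were 2 of the 10 in edgeR, Sf3b3 and Sf3b1, against 8.15% of all genes, 1 of the 10 in DESeq2, against 10.1%, and 1 of the 10 in limma voom, against 8.56%. The log2 fold change was above 0 for 8 of the 10 and for 52.7% of all genes tested, with a median of 0.23 for the 10 and 0.03 for all. It was above 0 for 8 of the 10 in DESeq2, against 53.2% of all genes, and for 7 of the 10 in limma voom, against 48.3%. The edgeR median depended on Prmt5 KO 4: without this library it was 0.01, and 5 of the 10 were above 0. The groups overlapped for each of the 10 genes, while 4.9% of all genes tested had groups that did not overlap. In bulk RNA, fewer cells of a kind and less RNA per cell cannot be told apart.

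**Figure D1:**
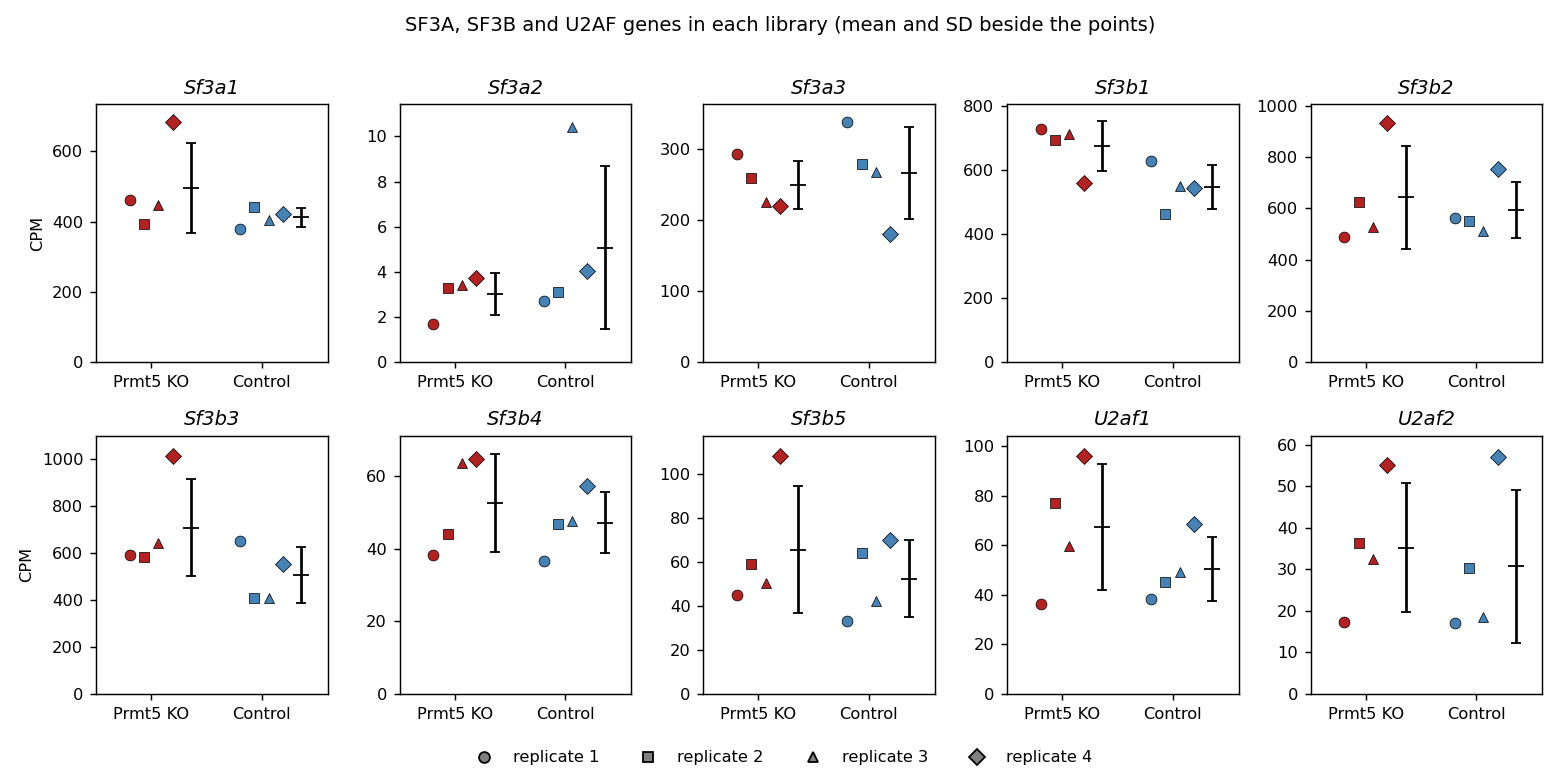
CPM of each of the 10 genes in every library, with Prmt5 KO on the left and Control on the right of each panel, 1 point per library and the mean with SD (n = 4) beside the points. The groups overlap in every panel, and Prmt5 KO 4 (red diamond) is the highest library for Sf3a1, Sf3b2, Sf3b3, Sf3b4, Sf3b5 and U2af1.

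SF3B is the complex that grips the branch site, and its 5 genes among the 10 had log2 fold changes from 0.11 to 0.48, where 52.7% of all genes tested were above 0. Without Prmt5 KO 4 those of Sf3b2 and Sf3b5 were below 0, and Sf3b6, an SF3B gene outside the 10, was below 0 with all libraries. Sf3b1 (ENSMUSG00000025982, GRCm38 chr1:54985169-55027481, minus strand) encodes the HEAT-repeat protein that closes around the branch helix. It was at 730, 695, 715 and 559 CPM in Prmt5 KO 1 to 4 and at 630, 463, 551 and 544 CPM in Control 1 to 4. In 3 of 4 Prmt5 KO libraries it was above every Control library, and Prmt5 KO 4 lay within the Control range. Its mean was 675 ± 78.2 CPM in Prmt5 KO and 547 ± 68.4 CPM in Control (SD, n = 4 each), a 1.23-fold ratio with a 95% interval of 1.01 to 1.51 (edgeR, unadjusted p = 0.0429, adjusted p = 0.595). Sf3b1 was the SF3B gene that was lowest, not highest, in Prmt5 KO 4 among the Prmt5 KO libraries, and without that library its log2 fold change was 0.38.

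Sf3b3 (ENSMUSG00000033732, chr8:110810239-110846787, minus strand) encodes a beta-propeller scaffold on which Sf3b1 rests. It was at 592, 582, 641 and 1013 CPM in Prmt5 KO 1 to 4 and at 650, 408, 408 and 553 CPM in Control 1 to 4. Prmt5 KO 4 was far above all other libraries, and the other Prmt5 KO libraries lay between the second highest and the highest Control library. The log2 fold change was 0.48 with a standard error of 0.20, the highest of the 10 genes (edgeR, unadjusted p = 0.0335, adjusted p = 0.576), and it was 0.26 without Prmt5 KO 4. Exons of Cog4, a Golgi tethering gene on the opposite strand, cover 102 bases (2.25%) of the Sf3b3 transcript, and the sources used here do not say on which strand reads were counted. Cog4 was at 76.8 CPM in Prmt5 KO 4, against 141 to 143 CPM in the other Prmt5 KO libraries and 121 to 165 CPM in Control, so it was low in the library where Sf3b3 was high.

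Sf3b2 (ENSMUSG00000024853, chr19:5273932-5295455, minus strand) encodes the partner of Sf3b4, and its human protein is a known substrate of another arginine methyltransferase, PRMT9. It was at 488, 625, 527 and 932 CPM in Prmt5 KO 1 to 4 and at 561, 551, 510 and 754 CPM in Control 1 to 4. The library numbered 4 was the highest in both groups, and without Prmt5 KO 4 the log2 fold change of 0.11 was -0.12. An antisense gene, AC125059.3, overlaps 194 bases (6.02%) of its transcript and had no counts. Sf3b4 (ENSMUSG00000068856, chr3:96172332-96177564, plus strand), an RNA-binding subunit whose human gene is mutated in Nager syndrome, was at 38.2, 44.2, 63.7 and 64.8 CPM in Prmt5 KO 1 to 4 and at 36.7, 46.9, 47.7 and 57.3 CPM in Control 1 to 4. Its log2 fold change was 0.16 with a standard error of 0.29 (edgeR adjusted p = 0.943). Gm17690, on the opposite strand, overlaps 85 bases (4.44%) of its transcript and was at 0 to 1.19 CPM in Prmt5 KO and, apart from 20.1 CPM in Control 2, at 0 to 0.352 CPM in Control. Sf3b5 (ENSMUSG00000078348, chr10:13005343-13009183, plus strand), the small subunit annotated with a single exon, was at 45.3, 59.1, 50.4 and 108 CPM in Prmt5 KO 1 to 4 and at 33.1, 64.3, 42.2 and 70.2 CPM in Control 1 to 4. Its log2 fold change of 0.32 (standard error 0.35, edgeR adjusted p = 0.861) was -0.02 without Prmt5 KO 4. Summed over the 5 genes, SF3B was at 1893, 2005, 1996 and 2677 CPM in Prmt5 KO 1 to 4 and at 1910, 1533, 1559 and 1979 CPM in Control 1 to 4.

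SF3A joins SF3B to the core of the U2 particle, and its 3 genes did not move alike across libraries. Sf3a1 (ENSMUSG00000002129, chr11:4160350-4182541, plus strand), the subunit with SURP and ubiquitin-like domains, was at 462, 392, 447 and 682 CPM in Prmt5 KO 1 to 4 and at 378, 443, 405 and 423 CPM in Control 1 to 4. Control spread little, with an SD of 27.6 CPM, and Prmt5 KO spread widely, with an SD of 128 CPM, through Prmt5 KO 4. The log2 fold change was 0.27 with a standard error of 0.17 (edgeR adjusted p = 0.733), and 0.08 without that library. Sf3a3 (ENSMUSG00000028902, chr4:124714776-124732460, plus strand), which contacts the U2 particle, was at 293, 259, 226 and 220 CPM in Prmt5 KO 1 to 4 and at 338, 279, 268 and 181 CPM in Control 1 to 4. In both groups the library numbered 4 was the lowest and the library numbered 1 the highest, the reverse of U2af1 and U2af2. Its log2 fold change was -0.09 with a 95% interval of -0.51 to 0.32 (edgeR adjusted p = 0.952).

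Sf3a2 (ENSMUSG00000020211, chr10:80798198-80804924, plus strand), a zinc-finger subunit, gave few reads. Its counts were 10, 17, 23 and 15 in Prmt5 KO 1 to 4 and 16, 7, 19 and 23 in Control 1 to 4. On the scale of library size this was 1.69, 3.29, 3.42 and 3.74 CPM in Prmt5 KO 1 to 4 and 2.70, 3.13, 10.4 and 4.05 CPM in Control 1 to 4. Control 3, the shallowest library, held the one high value. The log2 fold change of -0.71 had a 95% interval of -2.16 to 0.75 (edgeR adjusted p = 0.834), and without Control 3 it was -0.12. Summed over its 3 genes, SF3A was at 757, 655, 676 and 906 CPM in Prmt5 KO 1 to 4 and at 718, 725, 683 and 607 CPM in Control 1 to 4. Exons of Plekhj1 on the opposite strand cover 429 bases (19.4%) of the Sf3a2 transcript. Plekhj1 was at 53.3 ± 6.45 CPM in Prmt5 KO and 65.3 ± 14.0 CPM in Control (SD, n = 4 each), and it is not known to which gene reads in the shared stretch were counted.

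U2AF reads the end of the intron. The U2af1 transcripts that were counted, U2af1-201 and U2af1-202, differ in exon 3, of which the gene holds 2 versions of 67 bases each, and in the length of exon 1. Both versions of exon 3 are shown because they are what sets the 2 counted transcripts apart in sequence. They are printed 5′ to 3′ on the minus strand of chromosome 17 (GENCODE M21 transcripts, GRCm38), with capitals for the bases at which they differ.
U2af1-201, chr17:31651646-31651712: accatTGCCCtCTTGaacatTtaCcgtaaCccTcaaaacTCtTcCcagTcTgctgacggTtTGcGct
U2af1-202, chr17:31652502-31652568: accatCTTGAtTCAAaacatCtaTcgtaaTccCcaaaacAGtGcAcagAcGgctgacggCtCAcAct
The exons share 44 of 67 bases (65.7%) and differ at 23, and the exon of U2af1-202 is the upstream one.

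U2af1 (ENSMUSG00000061613, chr17:31647081-31658892, minus strand), the small subunit, was at 36.5, 76.9, 59.5 and 96.2 CPM in Prmt5 KO 1 to 4 and at 38.4, 45.1, 49.4 and 68.6 CPM in Control 1 to 4. In both groups the library numbered 1 was the lowest and the library numbered 4 the highest. The log2 fold change was 0.41 with a 95% interval of -0.29 to 1.12 (edgeR adjusted p = 0.791). U2af1-202, which holds the upstream exon, had 75.5%, 64.7%, 73.0% and 73.1% of the counts of U2af1-201 in Prmt5 KO 1 to 4 and 63.4%, 67.3%, 77.8% and 74.6% in Control 1 to 4. The means were 71.6% ± 4.69 in Prmt5 KO and 70.8% ± 6.57 in Control (SD, n = 4 each; two-sided exact permutation p = 0.914). The transcripts share 856 bases, so most reads may count for both, and the percent need not follow the use of either exon. U2af2 (ENSMUSG00000030435, chr7:5062143-5079938, plus strand), the large subunit, was at 17.2, 36.4, 32.4 and 55.1 CPM in Prmt5 KO 1 to 4 and at 17.1, 30.4, 18.7 and 57.0 CPM in Control 1 to 4. The spread within each group exceeded the difference between them, with a log2 fold change of 0.19 and a standard error of 0.46 (edgeR adjusted p = 0.964).

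**Figure D2:**
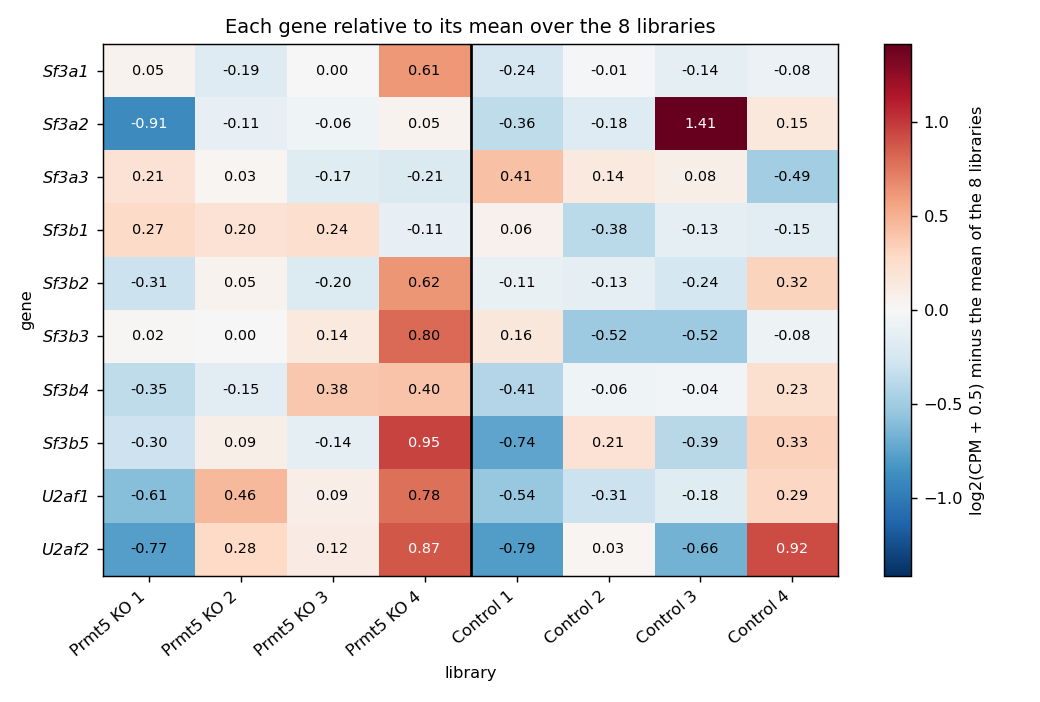
Each cell is the log2(CPM + 0.5) of a gene (row) in a library (column, Prmt5 KO left of the line and Control right) minus the gene's mean over the 8 libraries, red above and blue below. Prmt5 KO 4 is above the mean for 8 of the 10 genes, while Sf3b1 and Sf3a3 are below it there.

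Much of the spread in these genes lay between libraries of the same group. Among the Prmt5 KO libraries, Prmt5 KO 4 was the highest for 8 of the 10 genes, against 33.4% of all genes tested, and Prmt5 KO 1 was the lowest for 6 of the 10, against 28.2%. Among the Control libraries, Control 4 was the highest for 5 of the 10 (26.7% of all genes) and Control 1 the lowest for 6 (27.3%). On the log2 scale the median deviation of the 10 genes from their mean over 8 libraries was 0.62 in Prmt5 KO 4 and -0.30 in Prmt5 KO 1, against 0.19 in Control 4 and -0.30 in Control 1. The somatic marker sum was high in Prmt5 KO 1 and Prmt5 KO 4 had the fewest detected genes of the Prmt5 KO libraries, though more than Control 2 and 3, and their part in these values was not tested.

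**Figure D3:**
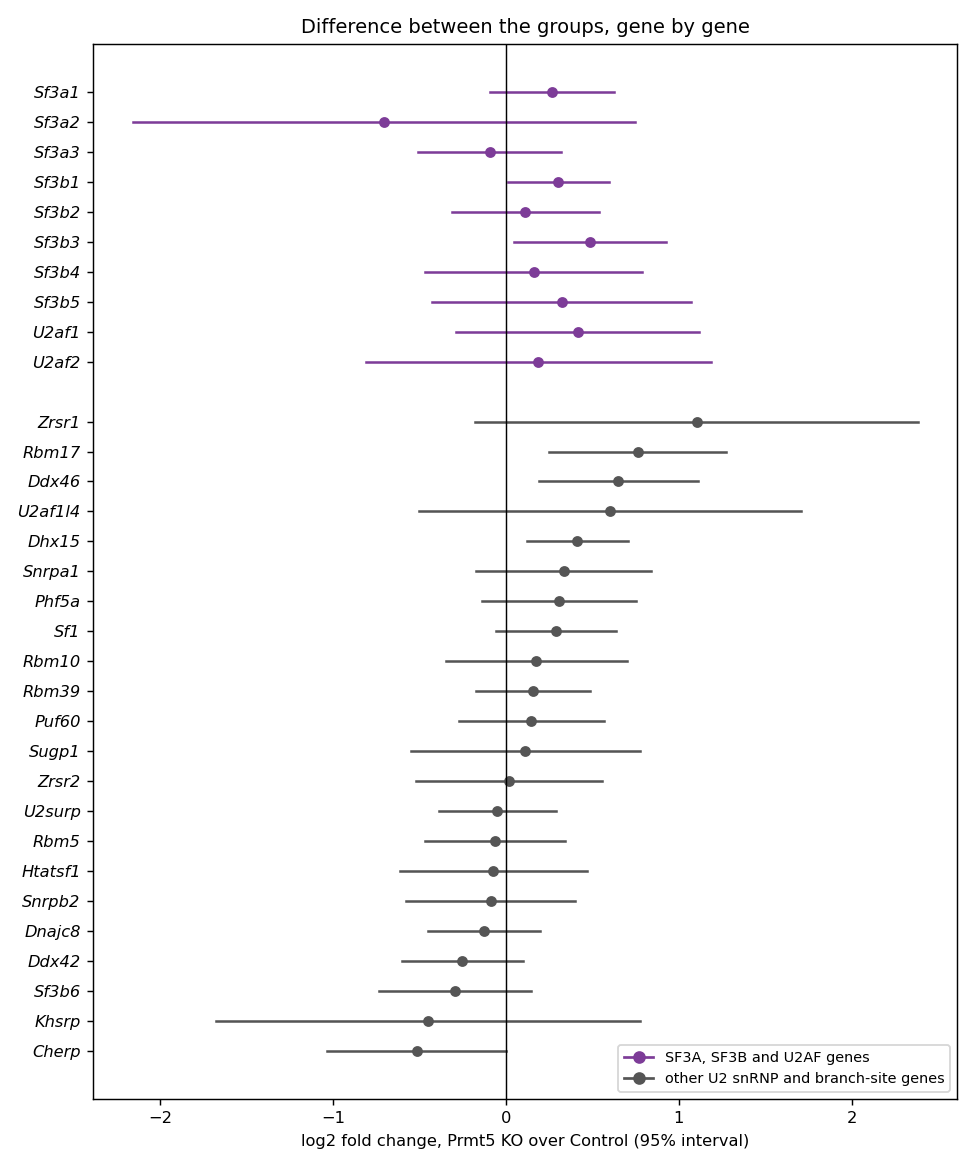
Log2 fold change of Prmt5 KO over Control (points) with unadjusted 95% intervals (lines) for the 10 SF3A, SF3B and U2AF genes (purple) and 22 other U2 snRNP and branch-site genes (grey). The intervals of Sf3b1 and Sf3b3 lie just above 0, and among the grey genes those of Rbm17, Ddx46 and Dhx15 also lie above 0. Those of the scarce genes Sf3a2 and Zrsr1 are the widest of their sets.

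The precision set what could be seen. For 6 of the 10 genes (Sf3a1, Sf3a3, Sf3b1, Sf3b2, Sf3b3 and Sf3b4) the unadjusted 95% interval of the log2 fold change lay within 1 either way, that is, within a doubling or a halving. The upper bound was 1.07 for Sf3b5, 1.12 for U2af1 and 1.19 for U2af2, so a doubling of these was within the interval.

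Other genes of the same step came from a list of 22, all of which were tested: further U2 proteins, branch-site readers, helicases and factors that bind SF3B. Here too 0 were called in edgeR, DESeq2 or limma voom, with 13 above 0 (52.7% of all genes tested), 9 below 0 and a median log2 fold change of 0.13, against 0.03 for all genes. At an unadjusted p under 0.05 there were 3 of the 22 in edgeR, all higher (8.15% of all genes), 4 in DESeq2 (10.1%) and 5 in limma voom (8.56%). Rbm17, the SPF45 protein that takes part in choosing the end of some introns, was at 131, 182, 180 and 281 CPM in Prmt5 KO 1 to 4 and at 92.0, 144, 111 and 110 CPM in Control 1 to 4 (edgeR, log2 fold change 0.76, adjusted p = 0.409, standard error 0.24). Ddx46, the helicase known in yeast as Prp5 that helps U2 engage the branch site, was at 208, 254, 300 and 361 CPM in Prmt5 KO 1 to 4 and at 245, 148, 153 and 167 CPM in Control 1 to 4 (edgeR, log2 fold change 0.65, adjusted p = 0.429, standard error 0.21). For both genes 3 of 4 Prmt5 KO libraries lay above every Control library.

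Dhx15, the helicase known in yeast as Prp43 that takes spliceosomes apart, was the 1 gene of the 22 whose groups did not overlap, as for 4.9% of all genes tested, and it is named because of that value. It was at 532, 449, 457 and 455 CPM in Prmt5 KO 1 to 4 and at 306, 411, 366 and 339 CPM in Control 1 to 4 (edgeR, log2 fold change 0.41 with a standard error of 0.14, unadjusted p = 0.00906 and adjusted p = 0.431). Lower values had Cherp, a U2-associated protein, at 78.4 ± 16.6 CPM in Prmt5 KO and 112 ± 25.6 CPM in Control, and Ddx42, a helicase that binds SF3B, at 178 ± 14.7 CPM in Prmt5 KO and 212 ± 28.7 CPM in Control (SD, n = 4 each). Neither passed (edgeR adjusted p = 0.614 and 0.749). The SF3B subunits outside the 10 genes, named after their values were seen, had fold changes of opposite sign and did not pass. Phf5a, which with Sf3b1 forms the pocket for the branch adenosine, had a log2 fold change of 0.31, and Sf3b6 had one of -0.29 (edgeR adjusted p = 0.756 for both).

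Levels were also compared between the genes, as CPM per kilobase of the counted transcript, averaged over the 8 libraries. The order was Sf3b2 (192), Sf3a3 (142), Sf3b3 (134), Sf3b1 (98.6), Sf3a1 (92.3), U2af1 (56.2), Sf3b4 (26.1), Sf3b5 (15.4), U2af2 (15.1) and Sf3a2 (1.83 CPM per kilobase). The ranges of neighbours overlapped except between U2af1 and Sf3b4 and between U2af2 and Sf3a2. Sf3b2, Sf3a3, Sf3b3, Sf3b1, Sf3a1 and U2af1 thus formed a run of overlapping ranges, although within libraries Sf3b3 was above Sf3b1 in all 8. Sf3a1 was likewise above U2af1, and Sf3b4 above Sf3b5, in all 8. U2af1 exceeded U2af2, its partner, in level per length. Where along a transcript the reads fall is not known from these counts, and a bias to one end would alter a level per length.

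**Figure D4:**
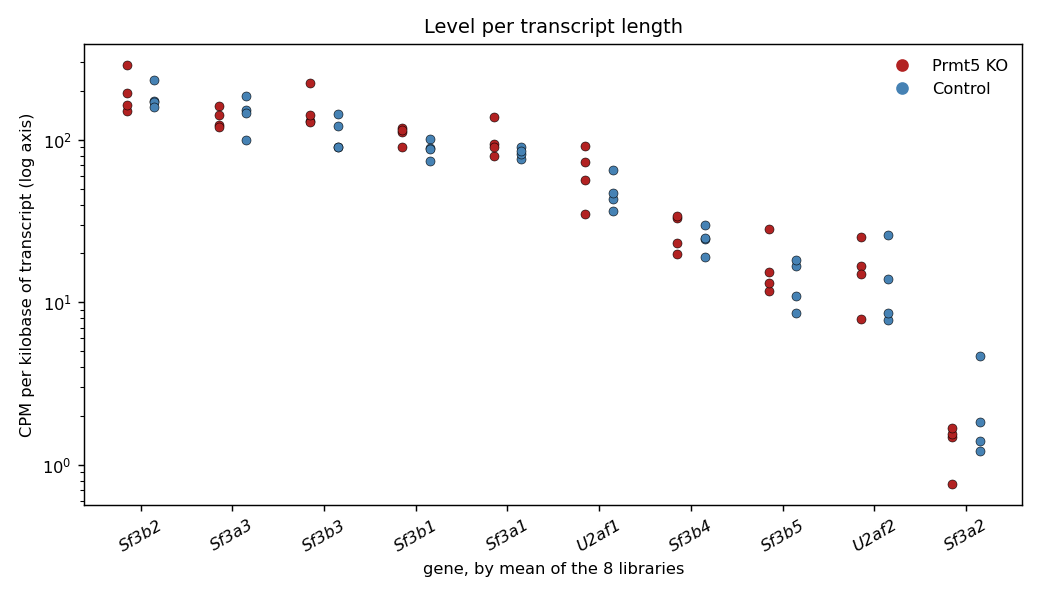
CPM per kilobase of the counted transcript on a log axis, 1 point per library, Prmt5 KO (red) left of Control (blue) for each gene, ordered by the mean of the 8 libraries. The genes from Sf3b2 to U2af1 each overlap with the next of them, U2af1 lies clear of Sf3b4, and Sf3a2 lies below every other gene in every library.

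Some annotated transcripts of these genes run into an intron, and they give a view of reads along the gene. Of 7 transcripts with a mean of at least 10 counts per library, 5 reach past an exon of the full transcript: Sf3a1-203, Sf3a1-204, Sf3a3-202, Sf3a3-203 and Sf3b4-202. The closing intron ends held by Sf3a3-202 and Sf3a1-204 are the kind of sequence that U2AF and the U2 particle read. Sf3a3-203, Sf3a1-203 and Sf3b4-202 hold the opening end of an intron instead. For Sf3a3-202 and Sf3a1-204 the last 60 intron bases and 6 exon bases are printed, with the closing AG in capitals. For the others 10 exon bases and 20 intron bases are printed, with the opening GT in capitals. All are plus strand, 5′ to 3′ (GENCODE M21 transcripts, GRCm38).
Sf3a3-202, before exon 7, chr4:124721964-124722029: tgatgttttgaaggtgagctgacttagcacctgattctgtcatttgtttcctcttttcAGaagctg
Sf3a1-204, before exon 13, chr11:4178011-4178076: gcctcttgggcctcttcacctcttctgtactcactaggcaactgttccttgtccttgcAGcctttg
Sf3a3-203, after exon 6, chr4:124718410-124718439: ggcatctgagGTaaggcctggagagtggag
Sf3a1-203, after exon 5, chr11:4171127-4171156: tttggaccagGTaaacacagaatttcctat
Sf3b4-202, after exon 2, chr3:96173090-96173119: cagcaccaggGTgagtagggtacggggcag
Of the 20 bases before the AG, 85.0% were C or T in the Sf3a3 intron and 75.0% in the Sf3a1 intron.

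None of the 7 transcript ratios passed (two-sided exact permutation, Benjamini-Hochberg over the 7, lowest adjusted p = 0.200). The smallest unadjusted p that 4 against 4 libraries allow is 0.0286, and a single separated ratio could not go below an adjusted 0.200, so equal ratios cannot be read from it. Sf3a3-203, which spans exons 1 to 6 and 308 bases beyond them, had 27.3%, 29.2%, 29.3% and 24.0% of the counts of Sf3a3-201 in Prmt5 KO 1 to 4 and 30.9%, 37.3%, 33.0% and 29.7% in Control 1 to 4. Every Prmt5 KO library was below every Control library, by a narrow margin, and among 23498 such ratios of all genes 3.67% had groups that did not overlap. The means were 27.5% ± 2.51 in Prmt5 KO and 32.7% ± 3.34 in Control (SD, n = 4 each; exact permutation p = 0.0286, adjusted p = 0.200). Of its bases 480 lie in exons of Sf3a3-201, so a shift of reads along the shared exons and a change in the intron cannot be told apart.

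Sf3a1-203, which runs on past exon 5, had 4.20%, 2.08%, 2.70% and 0.804% of the counts of Sf3a1-201 in Prmt5 KO 1 to 4 and 1.48%, 0.706%, 0.813% and 1.83% in Control 1 to 4. In 3 of 4 Prmt5 KO libraries it was above every Control library, and in Prmt5 KO 4 it was near the lowest (exact permutation p = 0.143, adjusted p = 0.5). It rested on 22 to 115 reads in Prmt5 KO and 6 to 44 in Control. Sf3a1-204, which keeps the intron between exons 12 and 13, was at 10.6% ± 1.11 in Prmt5 KO and 10.1% ± 1.07 in Control (SD, n = 4 each; exact permutation adjusted p = 0.850). Sf3a3-202, over exons 7 and 8 and the bases around them, was at 15.6% ± 0.501 in Prmt5 KO and 14.3% ± 2.46 in Control (SD, n = 4 each; exact permutation adjusted p = 0.850). Sf3b4-202 and U2af2-202 had adjusted p = 1.00 in the same exact permutation test, with means of 4.58% and 91.2% in Prmt5 KO against 4.55% and 90.9% in Control.

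**Figure D5:**
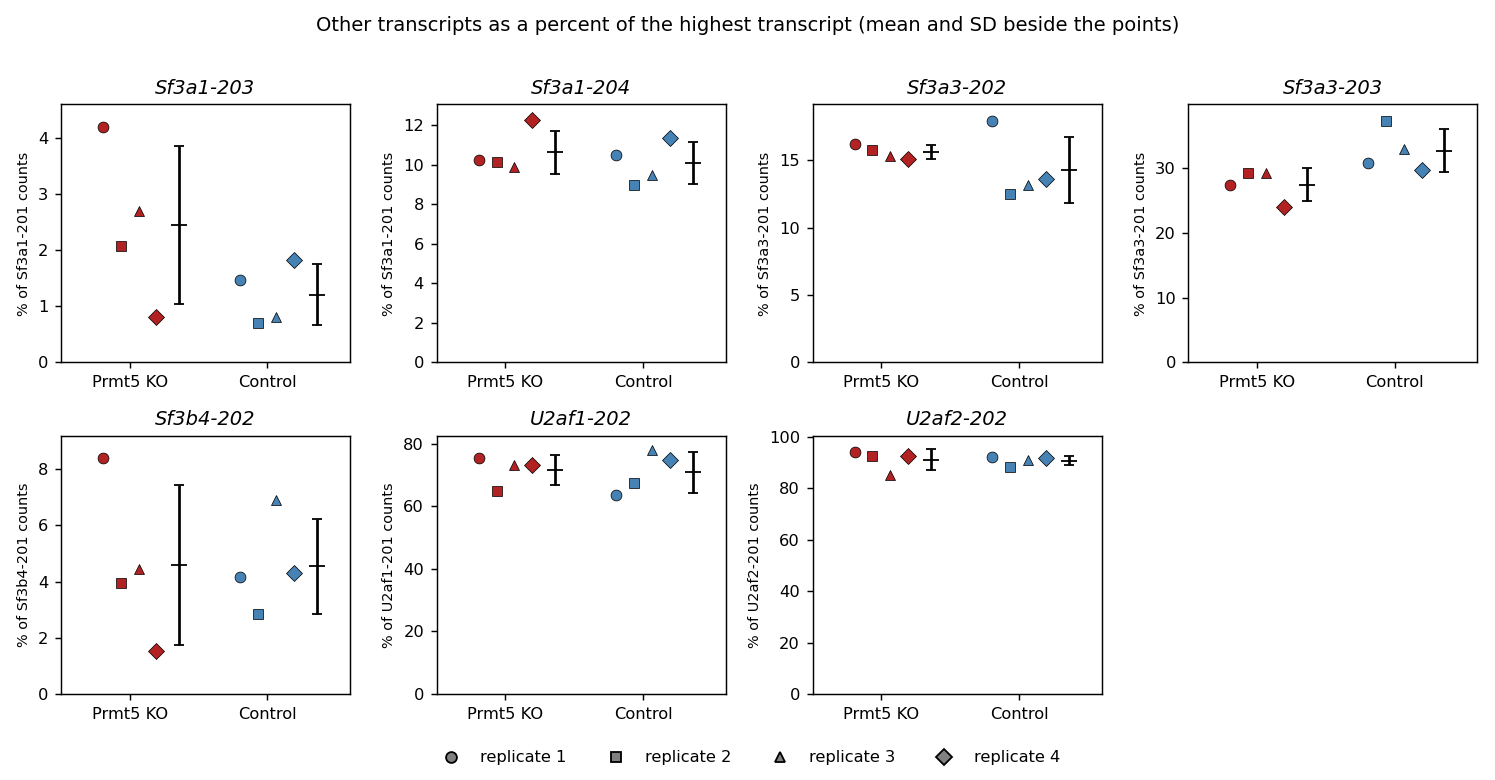
Counts of 7 annotated transcripts as a percent of the counts of the highest transcript of their gene, Prmt5 KO left and Control right, 1 point per library and the mean with SD (n = 4) beside the points. For Sf3a3-203 the 4 Prmt5 KO libraries (24.0% to 29.3%) lie below the 4 Control libraries (29.7% to 37.3%), and in the other 6 panels the groups overlap.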

How the data were processed

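The deposited files hold whole-number read counts per Ensembl transcript, and list transcripts with at least 1 count. Reads were trimmed, per the file headers, and the builds are GRCm38 and mm10, per the submitters' processing notes; the sources used here give no aligner, counter or strand setting. Of 66262 transcript identifiers, 64258 (97.0%) matched GENCODE M21. The files hold transcripts where the design foresaw genes, and 1132 of 6532 genes with several well-counted transcripts gave them identical counts, as if reads counted for each transcript they overlap. The gene value is therefore 1 transcript, the one with most counts when the 8 libraries are summed.

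Genes were filtered with filterByExpr (minimum count 10, minimum total 15), scaled by TMM (CPM are counts per 1000000 of the TMM-scaled library size) and tested by edgeR's quasi-likelihood test (robust, no covariates), with Benjamini-Hochberg adjustment at 0.05 over 10990 genes. The standard error is the log2 fold change divided by the square root of F, and 95% intervals use it with edgeR's degrees of freedom, unadjusted. For transcript ratios and library measures, a two-sided exact permutation test ran through all 70 assignments. The 3 library measures (total, genes detected, mitochondrial share) had permutation p from 0.257 to 0.371. No libraries held identical values. Members and lists were chosen with earlier results of these data known. Genes named are the 10 members, Prmt5, genes whose exons overlap a member, the 2 pathway genes per direction with the smallest p, and the most abundant marker of a list; any other was chosen after its values were seen. Of the other marker lists, Pecam1 led endothelium (276 CPM in Prmt5 KO, 283 CPM in Control), Csf1r blood and macrophage (23.7 and 33.8 CPM), Mfge8 somatic gonad (167 and 145 CPM) and Ier2 dissociation stress (52.7 and 59.2 CPM), each with Prmt5 KO before Control, and no marker was called. These leading markers do not stand for their lists. Cdh5 of endothelium was at 0.699 CPM in Prmt5 KO and 2.20 CPM in Control, and Ptprc of blood was at most at 0.149 CPM. At an unadjusted p under 0.05 in edgeR were 3 of the 9 somatic markers tested, against 8.15% of all genes. These were Col1a1, Col1a2 and Acta2, all higher in Prmt5 KO. They were highest in Prmt5 KO 1, at 92.9, 52.3 and 208 CPM. The other Prmt5 KO libraries had 1.74 to 2.53, 1.50 to 19.2 and 2.71 to 5.95 CPM. Pax8 of that list was lower in Prmt5 KO, at 11.2 CPM against 22.7 CPM in Control. Tek of endothelium was also under 0.05 in edgeR (52.3 CPM in Prmt5 KO, 12.3 CPM in Control, adjusted p = 0.409). Egfl7 of endothelium was at 5.43 CPM in Prmt5 KO and 12.4 CPM in Control. The 4 endothelium markers tested had a median log2 fold change of -0.12. Fos of the stress list, too low to be tested, was at 0.388 to 0.748 CPM in Prmt5 KO and 1.34 to 11.5 CPM in Control. These groups did not overlap, as for 4.9% of all genes tested, and Fos had 2 to 3 reads in each Prmt5 KO library. Jun of that list, also not tested, went the other way, at 1.36 to 24.7 CPM in Prmt5 KO and 1.18 to 2.19 CPM in Control. The 5 stress markers tested had a median log2 fold change of -0.30, and 0 had an unadjusted p under 0.05 in edgeR. Hba-a1 and Hbb-y had no counts, nor had Fosb and Hspa1b. Tests ran in R 4.3.3 with DESeq2 1.42.0, edgeR 4.0.16 and limma 3.58.1, and figures were drawn in matplotlib 3.10.9. The alternatives were other scalings, filters, tools and ways to sum transcripts, the replicate number as a block, and leaving out libraries.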

Additional observations from a re-analysis of the deposited data

Results flagged for a closer look

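The 32 genes checked here were not the 10 members and 22 pathway genes together, as they held Cog4, Gata4, Gm17690 and Tek. For these 32 and for 7 transcript ratios, the 4 values of each group were checked for one that lay far off (78 sets). There were 9 such sets, and at about 1 in 20 by chance some 3.9 would arise among independent sets; U2af1l4 and Gata4 had been named for such values, and Tek for its difference between groups. Sf3b3 was at 1013 CPM in Prmt5 KO 4, against 582 to 641 CPM in the other Prmt5 KO libraries. Sf3a1-204, annotated as a retained intron, was at 12.3% of the counts of Sf3a1-201 in Prmt5 KO 4, against 9.88% to 10.2% in the other Prmt5 KO libraries. U2af1l4 was at 96.2 CPM in Prmt5 KO 4, against 19.4 to 28.3 CPM in the other Prmt5 KO libraries, and Cog4 at 76.8 CPM in Prmt5 KO 4, against 141 to 143 CPM in them. Dhx15 was at 532 CPM in Prmt5 KO 1, against 449 to 457 CPM in the other Prmt5 KO libraries, and Gata4 at 29.7 CPM in Prmt5 KO 1, against 0.581 to 1.5 CPM in them. Gm17690 was at 20.1 CPM in Control 2, against 0 to 0.352 CPM in the other Control libraries, and Tek at 28.9 CPM in Control 1, against 4.46 to 8.09 CPM in them. Ddx42 was at 169 CPM in Control 4, against 221 to 231 CPM in the other Control libraries. Rbm5, U2surp and Rbm10, pathway genes outside the 32, also had a far value. Rbm5 was at 157 CPM in Prmt5 KO 4, against 273 to 280 CPM in the other Prmt5 KO libraries. U2surp was at 265 CPM in Control 4, against 333 to 338 CPM in the other Control libraries. Rbm10 was at 64.7 CPM in Control 3, against 86.5 to 90.6 CPM in them.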

How the results depend on the processing

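None of the 10 genes, the 22 other pathway genes and the 7 transcript ratios passed under any of the alternatives run for them. With 1 library left out, a single separated ratio could not go below an adjusted 0.200 in the exact permutation test. With 2 left out, the smallest p that this test allows is above 0.05, so the ratios could not pass. The 10 genes had 20 alternative fits. Of 200 values of the 10 genes in these fits, 191 kept their direction. Reversed were Sf3b2 in limma voom (-0.0062), without Prmt5 KO 1 and 4 (-0.045) and with Control 2 and 3 left out (-0.026), and U2af2 with these 2 left out (-0.063). Leaving out each library in turn, the log2 fold change ran from -0.12 to 0.25 for Sf3b2, -0.24 to 0.043 for Sf3a3, -0.024 to 0.50 for Sf3b5 and -0.11 to 0.68 for U2af2. The number of genes called over all genes, 3 in edgeR, was 103 in DESeq2, 1 in limma voom, 7 with no filter, 1 with the sum of transcripts, 1 without Prmt5 KO 1 and 4, 1 to 2 on leaving out each library, and 0 without Control 2 and 3 (713 genes at an unadjusted p under 0.05); the cause was not tested. With the replicate number as a block 1 gene was called. The labels do not say whether libraries with the same number share more than the number. Correlations of their deviations ran from 0.0023 to 0.069, and 3 of 4 Prmt5 KO libraries correlated best with their own number. Prmt5 kept its direction in all 20 alternative fits. The adjusted p of 0.0389 in edgeR was 9.9e-09 in the DESeq2 Wald test and 0.0023 in edgeR with no filter. It was 0.157 in limma voom and, in edgeR, 0.13 with the block and 0.0631 with the sum of transcripts. Without Prmt5 KO 1 and 4 the edgeR value was 0.194, and without Control 2 and 3 it was 0.76. Scaling by raw library totals was added after the data were seen and called 2 genes. Sf3a2 rested on 7 to 23 reads a library.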

Other observations

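Relatives of the small U2AF subunit were named after their values were seen. Zrsr1, an imprinted gene whose protein acts at the ends of minor introns, was at 14.5, 12.4, 21.6 and 16.7 CPM in Prmt5 KO 1 to 4 and at 2.70, 8.04, 4.94 and 14.4 CPM in Control 1 to 4 (log2 fold change 1.10, 95% interval -0.18 to 2.38, edgeR adjusted p = 0.673). Its X-linked relative Zrsr2 was at 245 ± 54.8 CPM in Prmt5 KO and 241 ± 89.0 CPM in Control (SD, n = 4 each; edgeR adjusted p = 0.992). U2af1l4, a close relative of U2af1, was at 96.2 CPM in Prmt5 KO 4, against 19.4 to 28.3 CPM in the other Prmt5 KO libraries and 17.4 to 34.8 CPM in Control (edgeR adjusted p = 0.807).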
